A study of Mus musculus with 10 samples.

Results

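Stretches of the genome where Brg1 summits followed each other closely were examined in AB17 hepatocytes. Neighbouring Brg1 summits on the 19 autosomes were joined into a chain wherever they lay at most 3 kb apart, and chains of 5 or more summits were kept. This gave 973 chains among 58562 groups (most of them a single summit), and the chains held 6120 of 81227 autosomal Brg1 summits (7.53%) within 7.80 Mb (0.317% of the autosomes). A summit is the position of highest signal in a ChIP-seq peak. The chains were selected on the Brg1 list itself, so their Brg1 counts and Brg1 peak values are given only as a description, whereas the other 7 peak lists and the gene annotation played no part in the choice.

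AB17 is a line of immortalized primary hepatocytes from a C57BL/6 mouse carrying Arid1a fl/fl, transduced with SV40LT and an activated H-Ras, both of which all samples therefore carry. Cells given Ad-GFP were wildtype (WT) and cells given Ad-Cre, which deletes Arid1a, were knockout (KO). Arid1a, Brg1, Ctcf and Rad21 were profiled in WT cells, H3K9me3 and H3K27me3 in both genotypes, and the 2 inputs entered only through peak calling. Each group was 1 library of 1 line, so no difference has a replicate check, no p-value is given, and every 95% interval covers counting error only. Read depth is unknown from the lists, which held 70157 autosomal summits for Arid1a, 89238 for Ctcf, 100056 for Rad21, 141657 and 131430 for H3K9me3 in WT and KO cells, and 108777 and 85640 for H3K27me3. The WT lists share 1 genotype and most likely 1 input, so they are not independent of each other in background.

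Brg1, encoded by Smarca4, is an ATPase that powers the SWI/SNF complexes, which slide and evict nucleosomes and keep promoters and enhancers accessible. Arid1a is the large subunit that marks the canonical BAF form of the complex. Rad21 is the kleisin subunit of cohesin, the ring that holds chromatin loops, and Ctcf is the zinc finger protein at which cohesin often halts. H3K9me3 marks constitutive heterochromatin, and H3K27me3 is laid down by Polycomb complexes at silent developmental genes.

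The sequences under the strongest Brg1 summit of 6 chains are given to show the letters beneath the tallest peak of the largest and of the strongest chains. In the Actg1 and Fbxl18 chains this summit is an outermost one. They cover 60 bp on either side of the summit, plus strand, in GRCm38 as held by RefSeq (the build family of mm10). The first 3 belong to the chains with most summits and the last 3 to the chains with the highest Brg1 value. Capitals mark a match to 1 of 6 motifs searched on both strands, which were TGACTCA (AP-1), CCGGAAGT (Ets), GGGCGG (GC box), CAGGGGGC (core of the Ctcf motif), CAAAGTCCA (Hnf4a) and TGACGTCA (CRE), and none of these contains another.
Malat1 to Neat1 chain, chr19:5818840-5818960: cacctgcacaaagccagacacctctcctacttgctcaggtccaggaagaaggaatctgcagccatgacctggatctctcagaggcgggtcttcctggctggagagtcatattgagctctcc
Sema3c chain, chr5:17584640-17584760: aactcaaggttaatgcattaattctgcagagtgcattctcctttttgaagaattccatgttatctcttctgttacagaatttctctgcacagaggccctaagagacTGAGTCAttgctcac
Lncppara chain, chr15:85678836-85678956: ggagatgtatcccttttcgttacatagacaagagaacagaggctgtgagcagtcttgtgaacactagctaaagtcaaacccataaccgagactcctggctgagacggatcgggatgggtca
Parp16 chain, chr9:65196082-65196202: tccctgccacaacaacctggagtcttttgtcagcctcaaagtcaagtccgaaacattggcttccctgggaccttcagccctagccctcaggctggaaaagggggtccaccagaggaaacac
Actg1 chain, chr11:120344569-120344689: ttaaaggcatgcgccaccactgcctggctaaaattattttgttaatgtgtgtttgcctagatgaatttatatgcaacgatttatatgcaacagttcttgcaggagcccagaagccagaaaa
Fbxl18 chain, chr5:142902118-142902238: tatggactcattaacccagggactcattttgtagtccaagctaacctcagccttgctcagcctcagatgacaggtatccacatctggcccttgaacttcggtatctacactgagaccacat
A single match was found in these 6 windows, an AP-1 site read on the minus strand in the Sema3c chain. The windows ranged in GC content from 39.7% to 55.4% and held between 0 and 4 CpG dinucleotides.

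The longest run of Brg1 summits lay between and over a pair of nuclear noncoding RNA genes. The chain at chr19:5805863-5839738 held 24 Brg1 summits over 33876 bp, and 12 of them fell within the body of Neat1, the scaffold RNA of paraspeckles, 72.4% of which it covered. Its near end stopped 3191 bp from Malat1, an abundant RNA of nuclear speckles. The chain also held 16 Arid1a, 17 Rad21, 6 Ctcf and 9 WT H3K9me3 summits, and no summit of KO H3K9me3 or of H3K27me3 in either genotype. No start of a protein-coding gene lay within 2 kb of it.

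The next largest chains included those at Sema3c, Tpm1 and Fn1. The Sema3c chain (chr5:17570981-17607662) held 22 Brg1 summits over the start and first part of this secreted semaphorin, with 13 Arid1a but only 3 Ctcf and 4 Rad21 summits. The Tpm1 chain (chr9:67024859-67049783) held 19 Brg1 summits over 91.5% of the tropomyosin gene, with 14 Arid1a, 8 Ctcf and 6 Rad21 summits. A chain of 19 summits lay inside Fn1, the fibronectin gene (chr1:71595896-71624515), with 7 Arid1a, 1 Ctcf and 2 Rad21 summits. The Tpm1 and Fn1 chains thus had the same number of Brg1 summits and differed several-fold in Ctcf.

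The other chains among the 10 with most summits belonged to varied genes. The chain at chr15:85667587-85693618 held 20 Brg1 and 14 Arid1a summits, lay wholly within the noncoding gene Lncppara, and was 41365 bp from the start of Ppara, a nuclear receptor of fatty acid catabolism. Wt1, a zinc finger transcription factor, held a chain of 18 summits within its body and a second one of 5 at its start. Chd2 (a chromodomain remodeller), Kansl2 (a subunit of a histone acetyltransferase complex) and Irf2bpl had chains of 17, 15 and 15 summits at their starts. Across the 9 of these chains described here, Arid1a summits numbered from 7 to 16 and Ctcf summits from 1 to 8.

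**Figure D1:**
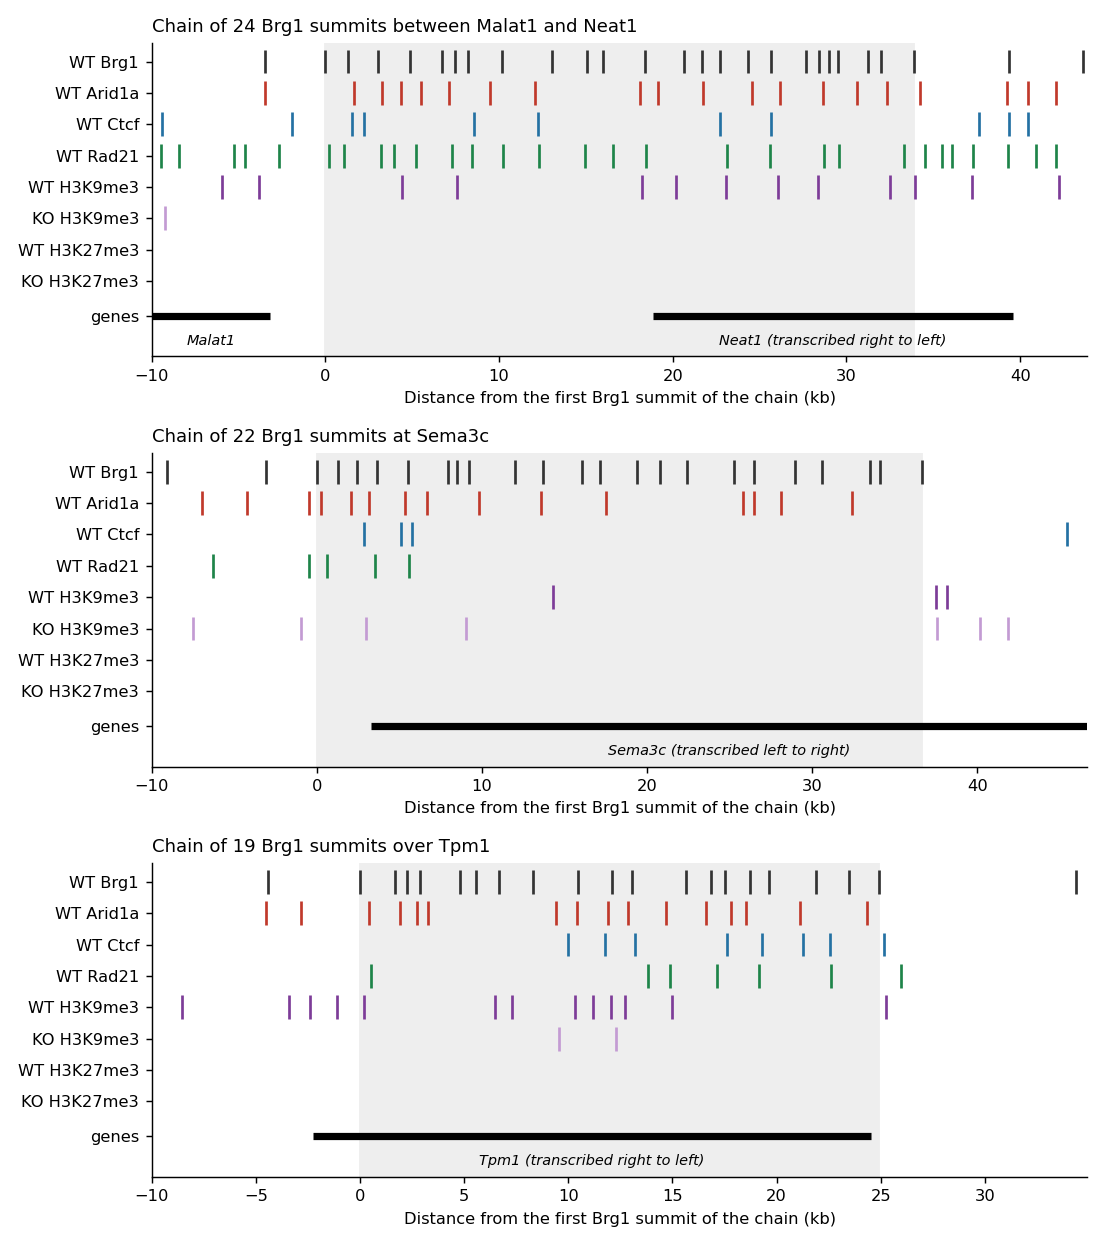
Summits of all 8 peak lists (ticks, 1 row per list) along 3 chains, by distance in kb from the first Brg1 summit, with the chain in grey and protein-coding genes, Malat1 and Neat1 as black bars. The chain that lay between Malat1 and Neat1 and over most of Neat1 held 24 Brg1, 16 Arid1a and 17 Rad21 summits. The Sema3c chain held 22, 13 and 4, and the Tpm1 chain 19, 14 and 6, counting summits up to 500 bp outside the grey.

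At the extremes, the highest Brg1 peak values and the highest numbers of summits fell in different chains. The −log10 q-value measures the significance of a peak over the input and not the size of its excess. It depends on read depth, which is unknown and can differ between lists. The 5 chains with its highest values for a Brg1 summit were those at Parp16 (25.8), Actg1 (20.9), Fbxl18 (19.6), Hspa8 (16.3) and between Fth1 and Best1 (15.5). None of these 5 chains was among the 10 largest. The Parp16 chain also contained a snRNA gene, Gm25313, and ended 850 bp from another, Rnu5g. Actg1 encodes cytoplasmic gamma actin, and the strongest summit of the Fbxl18 chain was its last one, 937 bp from the end of Actb, the gene of beta actin. Hspa8 encodes the constitutive Hsc70 chaperone, and Fth1 encodes the heavy chain of ferritin. Arid1a was found at all 5, with 3 to 6 summits each, and its −log10 q-value reached 22.8 at Parp16 and 14.4 at Hspa8.

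The 5 chains with most Ctcf, with most Rad21 and with most Arid1a were 11 chains in all, of which 6 were among the 10 with most Brg1 summits. The other 5 are described next. Tgif1, a homeodomain repressor of TGF-beta signalling, had 8 Ctcf and 8 Rad21 summits in a chain of 7 Brg1 summits. The chains at Tnrc18 and at Borcs6 and Tmem107 held 12 and 10 Brg1 summits and 11 Rad21 summits each. Rnd3, a GTPase that loosens actin stress fibres, lay almost wholly (99.6%) under a chain of 14 Brg1 summits with 12 Arid1a, 9 Rad21 and 3 Ctcf summits. Rnf213, a large ubiquitin ligase, had 11 Brg1 and 12 Arid1a summits, so that Arid1a outnumbered Brg1 there.

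The chosen minimum of 5 summits cut through a continuous distribution. There were 45015 single summits, 8741 pairs, 3833 groups of 3 or 4, 470 chains of 5, 349 of 6 or 7, 85 of 8 or 9 and 69 of 10 or more. The chains spanned 2677 to 36682 bp with a median of 7322 bp, and neighbouring summits within them lay 266 to 2999 bp apart with a median of 1400 bp. Of the 1111 groups of 4, the one with the highest Brg1 value (34.2, at chr11:87423459-87427082) stood above every chain of 5, where the highest were the Parp16, Actg1 and Fth1 values given above. Strong summits, taken here as those whose −log10 q-value reached 5, were 10.3% of the Brg1 summits in chains and 2.04% of single ones.

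Most chains held an Arid1a summit, although few held a strong one. Counting 500 bp beyond the outer summits, 914 of 973 chains (93.9%, 92.3 to 95.3) held at least 1 Arid1a summit, with a median of 3 and up to 16. Rad21 was found in 819 chains (84.2%, 81.7 to 86.3) and Ctcf in 687 (70.6%, 67.7 to 73.4). When partner peaks had to reach a −log10 q-value of 5, Arid1a came last, in 22.3% of chains, after Rad21 in 42.4% and Ctcf in 46.4%. All 3 were found together in 608 chains (62.5%), Arid1a with Rad21 but without Ctcf in 165, Arid1a alone in 97, and none of the 3 in 10. The share of equally long regions outside the chains with each partner or combination was not counted, so these shares are a description without a baseline. Flanks of the chains also held 130 Arid1a, 113 Rad21 and 93.2 Ctcf summits per Mb. The 10 chains with none of these proteins had 5 or 6 Brg1 summits each and included chains inside Lama2, Sema3a, Zfpm2 and Frmd4b.

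These numbers were compared with flanks of the same length placed 10 kb beyond both ends of each chain. Arid1a summits were 2.63 times as dense in the chains as in the flanks (2.49 to 2.78), Rad21 summits 2.24 times (2.11 to 2.38) and Ctcf summits 1.82 times (1.70 to 1.96). Against the rest of the autosomes the ratios were 12.5, 6.36 and 4.75. For the 397 chains lying wholly inside 1 protein-coding gene, a comparison added after the data were seen used the rest of those 335 gene bodies in place of the flanks. There the ratios were 3.07 (2.86 to 3.29) for Arid1a, 2.30 (2.11 to 2.51) for Rad21 and 2.11 (1.90 to 2.35) for Ctcf, so the order of the proteins was the same in each of these comparisons. Summit density was lower outside the chains within a few kb, for Arid1a from 0.346 per kb inside to 0.250 in the first kb and 0.147 in the third. The rule itself leaves no Brg1 summit within 3 kb outside a chain, so a fall of its partners there is not independent of the rule.

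**Figure D2:**
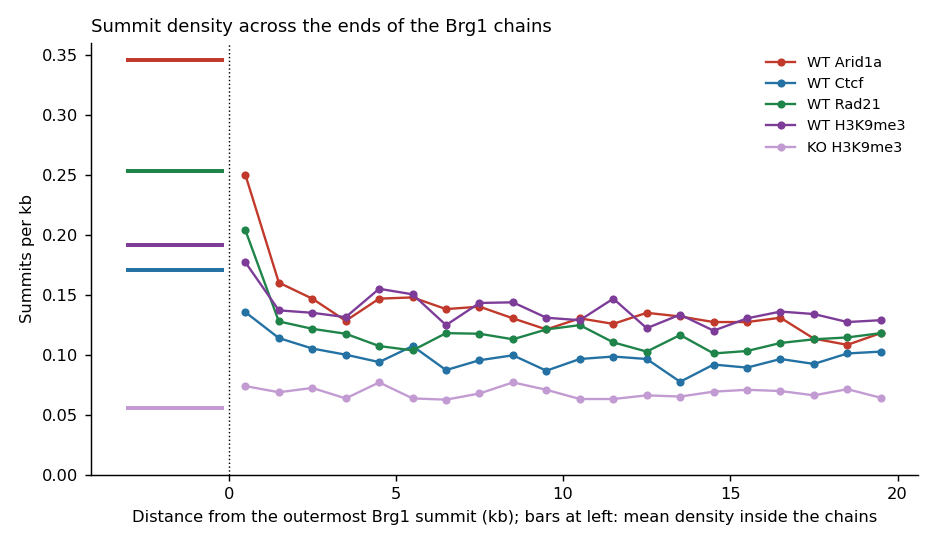
Summits per kb of 5 peak lists inside the 973 chains (bars at left, mean over the chain span) and in 1 kb steps up to 20 kb outside the outermost Brg1 summit. Arid1a stood at 0.346 per kb inside and 0.250 in the first kb outside, while KO H3K9me3 showed no peak at the chain. Brg1 is not drawn, and by the rule none of its summits lies within 3 kb outside a chain.

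The 59 chains without an Arid1a summit were small and lay away from genes more often than the others. They had 5 summits in 49 cases, 6 in 8 and 7 in 2, while none of the 154 chains of 8 or more summits lacked Arid1a, which allows a share of up to 1.95%. Chains with more summits also span more, with a median of 15837 bp for 10 or more summits against 6021.5 bp for 5. The shares with Ctcf (84.1% against 64.7%) and Rad21 (94.2% against 81.5%) were likewise higher in them. The part of span in these shares was not tested. A protein-coding start lay within 2 kb of 17 of the 59 (28.8%) and of 468 of the 914 with Arid1a (51.2%), and 15 (25.4%) against 92 (10.1%) lay outside protein-coding genes altogether. Rad21 was nevertheless found in 46 of the 59 (78.0%) and Ctcf in 35 (59.3%). Over all chains there were 0.490 Arid1a summits per Brg1 summit, with a median of 0.429 and a range from 0 to 1.6, and 50 chains held at least as many Arid1a as Brg1 summits.

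Larger chains were also denser in Arid1a, but not in Ctcf or Rad21. Per Mb there were 313, 337, 370 and 410 Arid1a summits in chains of 5, of 6 or 7, of 8 or 9, and of 10 or more Brg1 summits. The matching Rad21 densities were 256, 253, 258 and 245 per Mb, and those of Ctcf were 180, 167, 171 and 149. The middle stretch that makes up 50% of a chain's span held 52.0% (50.1 to 53.9) of Arid1a, 50.6% (48.4 to 52.8) of Rad21 and 49.2% (46.5 to 51.9) of Ctcf summits, so that only the Arid1a interval lay above an even spread, and by little.

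Next, the single Brg1 summit was taken as the unit. An Arid1a summit lay within 1 kb of 17.1% (16.7 to 17.4) of single Brg1 summits, 32.5% of those in pairs, 44.2% of those in groups of 3 or 4, and 56.3% (55.1 to 57.6) of those in chains. The Rad21 shares were 20.02%, 33.0%, 39.1% and 42.5%, and the Ctcf shares 16.0%, 24.3%, 29.4% and 30.8%. Neighbouring summits of a chain can share 1 partner, so these shares are not counts of separate partner sites.

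Proximity to gene starts separated Arid1a from the other proteins. Among Brg1 summits within 2 kb of a protein-coding start, Arid1a lay beside 44.8% (43.2 to 46.4) of single summits and 70.3% (67.8 to 72.7) of those in chains. The same comparison gave 46.3% and 49.6% for Ctcf and 59.8% and 64.8% for Rad21, smaller differences than for Arid1a. Away from starts the share was higher in chains for all 3, with 14.5% and 52.5% for Arid1a, 16.4% and 36.3% for Rad21, and 13.2% and 25.6% for Ctcf. Brg1 peak value moved with these shares, and its part in the difference was not tested beyond 1 division of the summits, within which chain summits could still be stronger. Among Brg1 summits with a −log10 q-value under 2.5, Arid1a lay beside 13.8% of single summits and 48.7% of those in chains, and among stronger ones beside 19.2% and 59.2%.

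**Figure D3:**
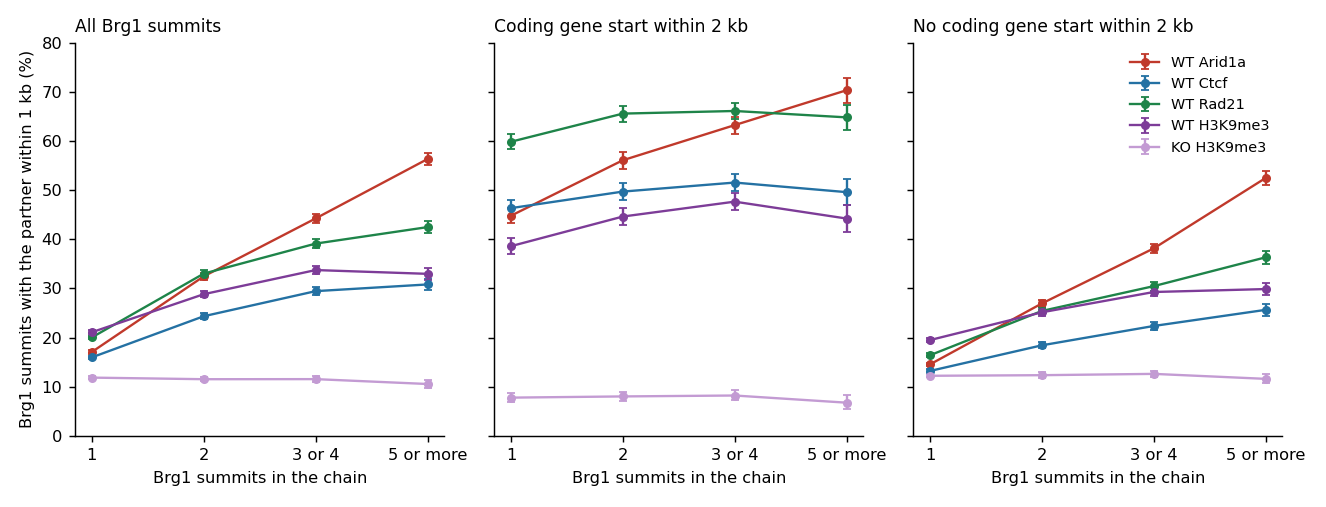
Percent of Brg1 summits with a summit of another list within 1 kb, by the number of Brg1 summits in the group, for all summits and by proximity to a protein-coding start (error bars, 95% Wilson intervals, counting error only). Near starts the Arid1a share was 44.8% for single summits and 70.3% in chains, whereas the Ctcf shares were 46.3% and 49.6%.

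The strongest Brg1 summit of each chain was compared with the other summits of the chains. Of the 973 strongest summits, 65.3% had Arid1a, 53.5% Rad21 and 36.3% Ctcf within 1 kb, and 29.8% lay within 2 kb of a protein-coding start. For the remaining 5147 summits the shares were 54.6%, 40.4%, 29.8% and 20.03%. Arid1a peaks themselves were stronger in the chains, where 9.37% (8.38 to 10.5) were strong by the same limit, against 2.17% (2.06 to 2.29) elsewhere. For Ctcf the shares were 40.4% and 41.0% and for Rad21 25.3% and 25.9%, differences within their intervals. Arid1a summits had a Brg1 summit within 1 kb in 95.9% of cases inside the chains, against 28.2% elsewhere. Among strong Arid1a summits these shares were 98.2% and 70.6%. Strong Arid1a summits thus went with Brg1 outside the chains too, and the part of Brg1 proximity in the Arid1a difference was not tested.

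Ctcf and cohesin were paired differently inside the chains. A Ctcf summit had Rad21 within 1 kb in 68.7% (66.3 to 71.0) of cases inside and 55.6% (55.3 to 55.9) elsewhere, a comparison in which the higher Rad21 density of the chains itself counts. In the other direction 50.02% of Rad21 summits inside had Ctcf, against 51.8% elsewhere. Among strong Rad21 summits, Ctcf was found beside 78.0% (74.4 to 81.2) inside and 89.2% (88.8 to 89.6) elsewhere. Strong cohesin summits without a Ctcf summit beside them were thus a larger share inside the chains than outside.

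The rule was then applied to the other lists. It gave 583 chains for Arid1a, 1266 for Ctcf, 2148 for Rad21, 3127 and 2873 for WT and KO H3K9me3, and 6519 and 4796 for WT and KO H3K27me3. An Arid1a chain overlapped 215 of the 973 Brg1 chains (22.1%), which is 213 of the 583 Arid1a chains (36.5%). Rad21 chains overlapped 133 Brg1 chains (13.7%, and 6.28% of the Rad21 chains), and Ctcf chains overlapped 58 (5.96% and 4.42%). Overlap with flanks or with smaller Brg1 groups was not counted, so these shares have no baseline and are a description. No WT H3K27me3 chain overlapped a Brg1 chain, which allows a share of up to 0.308%, although H3K27me3 formed more chains than any other list.

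The Polycomb mark was nearly absent from the chains. WT H3K27me3 summits were found in 28 chains (2.88%) and KO H3K27me3 summits in 12 (1.23%), and their density was 0.204 times (0.137 to 0.295) and 0.194 times (0.111 to 0.320) that of the flanks. Most of the exceptions lay at gene starts, with 24 of the 28 chains, among them those at Hoxb5, Hoxa7 and Hoxa9, the second Wt1 chain, Bdnf and Pdgfra. These were singled out after their values were seen, and chains at Rpl29, Capns1 and Cdk4 were among the others. The chain at the Wt1 start (chr2:105123944-105130341) held 2 WT and 5 KO H3K27me3 summits beside 5 Brg1, 4 Arid1a and 7 Rad21 summits, and it was the chain with most KO H3K27me3 summits. In sum the chains held 32 WT and 17 KO H3K27me3 summits, a ratio of 0.531 (0.277 to 0.986), against 0.559 in the flanks and 0.787 over all autosomes.

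H3K9me3 summits, by contrast, were frequent in the chains in WT cells and less so in KO cells. They were found in 736 chains (75.6%) in WT and 339 (34.8%) in KO cells, with WT alone in 463 chains, both in 273, KO alone in 66 and neither in 171. Their number was 1673 in WT and 513 in KO cells, a ratio of 0.307 (0.277 to 0.339). The ratio was 0.508 (0.473 to 0.545) in the flanks and 0.928 over all autosomes, so the chains and their surroundings differed from the genome at large. At chains with a protein-coding start it was 0.229 (0.196 to 0.267) and at the others 0.394 (0.344 to 0.450). A low KO share near starts was not particular to chains. Among Brg1 summits within 2 kb of a start, WT H3K9me3 lay within 1 kb of 38.6% of single summits and 44.2% of those in chains. For KO H3K9me3 these shares were 7.77% and 6.74%.

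The H3K9me3 difference between chains and flanks lay in both lists, and more in the WT list. WT H3K9me3 summits were 1.43 times (1.34 to 1.52) as dense in chains as in flanks, while KO H3K9me3 summits were 0.861 times (0.775 to 0.955) as dense. Set against the rest of the same gene bodies, for the 397 chains inside a gene, the WT ratio was 1.76 (1.61 to 1.93) and the KO ratio 1.004 (0.860 to 1.17). Within 1 kb, WT H3K9me3 lay beside 21.1% of single Brg1 summits, 28.8% of those in pairs, 33.7% of those in groups of 3 or 4 and 33.0% of those in chains, and KO H3K9me3 beside 11.8%, 11.5%, 11.5% and 10.5%. The WT share was thus no higher in chains than in groups of 3 or 4, and the ratio of Brg1 summits with KO to those with WT H3K9me3 was 0.342 in these groups and 0.320 in chains, against 0.562 for single summits. These ratios pool summits near and away from gene starts, and 21.6% of chain summits but 8.35% of single ones lay within 2 kb of a start. The Arpc1b chain (an actin nucleation subunit) held 10 WT and 0 KO H3K9me3 summits, and the Tpm1 chain 9 and 2. The Arpc1b chain was singled out after its values were seen. Most H3K9me3 summits in the chains were weak, and 76 WT and 30 KO summits were strong. Depth and antibody efficiency of the KO and WT libraries cannot be told apart from genotype, and Brg1 and Arid1a were not profiled in KO cells.

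**Figure D4:**
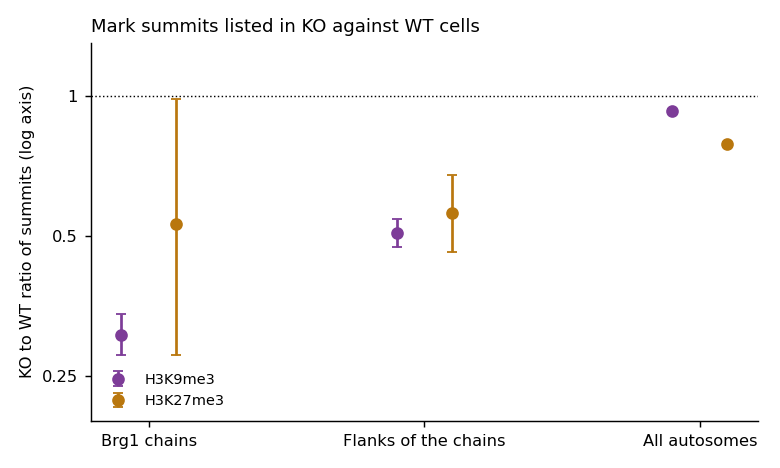
KO to WT ratio of the number of H3K9me3 and H3K27me3 summits (log axis) in the Brg1 chains, in their flanks and over all autosomes, with 95% intervals for counting error only and 1 library per genotype and mark. For H3K9me3 the ratio was 0.307 in the chains, 0.508 in the flanks and 0.928 over all autosomes.

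About 1 chain in 2 lay at the start of a protein-coding gene. A start was within 2 kb of 485 chains (49.8%, 46.7 to 52.98), of which 380 had 1 start, 88 had 2 and 17 had 3 to 5. A further 381 (39.2%) met a gene body only, and 107 lay outside protein-coding genes. In all, 613 of 20807 autosomal protein-coding genes had a start in a chain, a background share of 2.95%, against 41.4% with any Brg1 summit within 2 kb of the start. Among annotated genes of every type 996 starts lay in a chain (1.94%).

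The chains outside protein-coding genes were not all far from a transcript. Of these 107 chains 28 had the start of another annotated gene within 2 kb. The examples that follow were singled out after their values were seen. A chain of 11 Brg1 summits at chr9:41577313-41588908 took in the start of Mir125b-1 and held 6 Arid1a, 5 Ctcf and 8 Rad21 summits, 415616 bp from the nearest protein-coding start. A chain of 10 with 7 Arid1a, 4 Ctcf and 6 Rad21 summits took in those of Mir143 and Mir145a on chromosome 18. One of 13 Brg1 summits at chr6:31067948-31085559 lay 108870 bp from Klf14, with 7 Arid1a, 3 Ctcf and 4 Rad21 summits. All 3 held Arid1a, Ctcf and Rad21.

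Chains extended into genes rather than away from them. Of the 380 chains with a single start, 287 (75.5%) held more Brg1 summits downstream of it than upstream, 82 held more upstream and 11 as many on both sides. Their median reach was 1508 bp upstream and 5547.5 bp downstream, and 74 also took in the end of the gene. Of their Brg1 summits 61.4% lay in the gene body, as did 64.9% of the Arid1a, 66.03% of the Rad21 and 62.8% of the Ctcf summits. Over all chains 72.1% of Brg1 summits lay in a protein-coding gene body, against 53.8% of single Brg1 summits and 40.3% of autosomal bases.

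With 500 bp added on each side, the chains met 998 protein-coding genes and covered 135 of them from end to end. The counts and coverage in this paragraph include these 500 bp, whereas the coverage of Neat1, Tpm1 and Rnd3 given above does not. Genes covered whole were short, with a median of 3372 bp against 29518.5 bp for all genes met and 17629 bp for all autosomal protein-coding genes. The span of the chains, with a median of 7322 bp, itself limits whole cover mostly to short genes. Longer genes likewise have more room to meet several chains. At the other extreme 91 genes met at least 2 chains and 22 at least 3. The following were singled out after their values were seen. Cald1, the actin-binding caldesmon, met 5 chains with 41 Brg1 summits. Vmp1, an autophagy gene whose last part overlaps the miR-21 locus, met 4 chains with 42 summits over 46.6% of its body. Fn1 met 4 chains with 37 summits over 71.4% of its body, the largest coverage of these. Hmga2 and Col5a2, a chromatin architectural protein and a fibrillar collagen, each met 4 chains as well.

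Genes were next grouped by function to see which kinds carried chains. Of 71 ribosomal protein genes, 19 (26.8%, 17.9 to 38.1) had a start in a chain, against the background of 2.95%, among them Rpl23a, Rpl35, Rpl6, Rps13 and Rps28 with 7 Brg1 summits in the chain. Of 67 histone genes 17 (25.4%, 16.5 to 36.9) did, but these sat in just 5 chains. The shares for AP-1 and immediate early genes, actin and focal adhesion genes, glycolysis genes, and matrix and EMT genes were 22.2% (6 of 27), 21.4% (6 of 28), 21.1% (4 of 19) and 20% (5 of 25). The intervals of these 6 lists lay above the background share, as did those of cell cycle and p53 genes (13.6%, 4.75 to 33.3) and of Polycomb and homeobox genes (11.5%, 4.003 to 28.98), but members that share a chain are not separate observations. The lists were chosen with earlier results of these data known, so the intervals are no test of enrichment. In all these lists any Brg1 summit at the start was also more frequent, at 57.7% to 96.3% of genes, than over all genes (41.4%).

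Members of 4 of these lists are given with the Brg1 summits of their chain. Among growth-response genes Jun and Ier2 lay in chains of 7 summits, Myc and Mafk in chains of 6, and Ier5 and Zfp36 in chains of 5. Among cytoskeletal genes Tpm1 had 19, Flnc 8, Actn1 6, and Actg1, Ahnak and Pfn1 5 each. Of the 5 matrix and EMT genes 4 are given, Vim with 9, Mmp14 with 8, Lox with 7 and Fn1 with 5 at its start. Of glycolytic enzymes, Tpi1 had 10, Pkm 7, Eno1 6 and Gapdh 5. Transcription was not measured in the lists analysed here.

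For genes of differentiated hepatocytes, the share with a chain could not be told apart from the background of 2.95%. Of 24 genes of hepatocyte plasma proteins none had a start in a chain, which allows a share of up to 12.5%, and only 4 (16.7%) had any Brg1 summit at the start, against 41.4% of all genes. Of 20 hepatocyte transcription factor genes Gata6 alone had one (5.0%), and 6 (30.0%) had any Brg1 summit. The olfactory receptor genes, silent outside sensory tissue, had none among 1127, which allows up to 0.266%. The shares of the plasma protein and transcription factor lists have intervals that include the background share, so a deficit in chains was not detectable for lists of this size, and whether AB17 cells express these genes was not measured here.

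**Figure D5:**
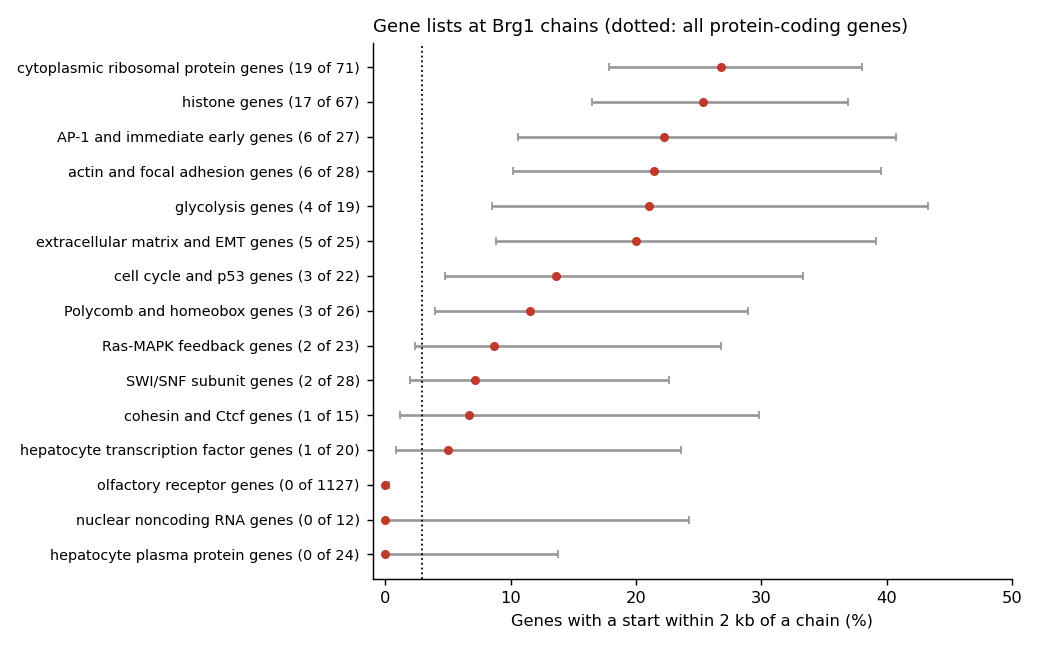
Percent of the autosomal genes in each list with a start within 2 kb of a Brg1 chain, with 95% Wilson intervals and the count of genes in brackets. The dotted line is the share of all autosomal protein-coding genes, 2.95%, and ribosomal protein genes stood highest at 26.8%.

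The remaining lists gave counts of 3 or fewer, to be read against the background of 2.95%. Of cell cycle and p53 genes 3 of 22 had a start in a chain (Cdkn2b with 7 summits, Btg1 and Gadd45b with 5), of Polycomb and homeobox genes 3 of 26 (Hoxb5 with 6, Ezh2 and Hoxa9 with 5), and of Ras-MAPK feedback genes 2 of 23 (Phlda1 with 12 and Dusp6 with 8). Of SWI/SNF subunit genes 2 of 28 did, Smarca4 (the gene of Brg1) and Ss18l1, and of cohesin and Ctcf genes Nipbl, the cohesin loader, did alone among 15. None of 12 nuclear noncoding RNA genes had its start in a chain, which allows a share of up to 25%, although the largest chain covered most of Neat1. Any Brg1 summit at the start was found for 22 of the 23 Ras-MAPK feedback genes and 26 of the 27 AP-1 and immediate early genes, against 41.4% of all genes.

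The histone chains held Arid1a but little else. The 17 histone genes lay in 5 chains, 4 of them in the Hist1 cluster on chromosome 13, which held only 5 chains in all. Together the 5 histone chains held 34 Brg1 and 25 Arid1a summits, but 3 Ctcf, 5 Rad21 and 2 WT H3K9me3 summits. For comparison, the 973 chains held 6120 Brg1, 2999 Arid1a, 1491 Ctcf, 2225 Rad21 and 1673 WT H3K9me3 summits. The chain at Hist4h4 on chromosome 6 had most Brg1 summits of these 5, with 9 beside 3 Arid1a, 1 Ctcf and 1 Rad21 summits. The Hist1 chain with most (chr13:22034854-22044061) took in the starts of 5 genes, Hist1h2ah, Hist1h2bk, Hist1h4i, Hist1h2ag and Hist1h2bj. It held 8 Brg1, 8 Arid1a, 1 Ctcf and 2 Rad21 summits. The chains at ribosomal protein genes, 18 in number, held 103 Brg1, 65 Arid1a, 28 Ctcf and 49 Rad21 summits. Near-identical histone genes can share reads, and how reads with several matches were treated is not given in the sources used here.

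Chains were unevenly spread over the chromosomes. Chromosome 14 held 2 chains (0.0160 per Mb) and chromosome 13 held 5 (0.0415 per Mb), whereas chromosome 11 held 99 (0.811 per Mb) and chromosome 19 held 87 (1.42 per Mb). The density of all Brg1 summits had the same extremes, with 4.95 per Mb on chromosome 14 and 67.3 on chromosome 19. So did that of Arid1a summits, with 3.67 and 64.5 per Mb. Chromosomes 14 and 10 had similar densities of protein-coding genes (7.22 and 7.81 per Mb), but chromosome 10 had 61.5 Brg1 summits per Mb. Comparisons with the rest of the autosomes and with single summits include this uneven spread, and its part in them was not tested. Chains also lay near each other, and 277 of the 973 (28.5%) had another chain within 50 kb. Without chromosomes 19 and 11, 787 chains remained, of which 93.8% held Arid1a, and the KO to WT ratio of H3K9me3 summits was 0.335.

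Of the motifs searched, the GC box differed between chains and single summits and the AP-1 motif did so by less than its interval. Within 50 bp of the summit the AP-1 motif was found at 2.27% (1.93 to 2.68) of summits in chains and 2.33% (2.19 to 2.47) of single summits, against 1.55% of windows set every 10 kb along the autosomes. The GC box was found at 4.18% in chains, 2.26% at single summits and 1.01% of the windows, and away from starts at 1.90% (1.55 to 2.32) in chains and 1.11% (1.01 to 1.22) at single summits. In groups of 2 to 4 summits its share was 3.998%, close to that in chains. The Ctcf core was found at 0.441%, 0.269% and 0.212%. The Ets, Hnf4a and CRE letters were at 0.0980%, 0.114% and 0.0817% in chains, near their levels of 0.0659%, 0.135% and 0.0559% in the windows. The median GC content over 250 bp on each side was 43.7% in chains and 42.1% at single summits, and 20.2% against 26.99% of the summits lay on repeat-masked bases. A match is a description of letters in a window and not a bound site.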

How the data were processed

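Bowtie2 was the aligner and mm10 the build per the study's methods. The authors then filtered reads by quality (SAMtools) and dropped PCR duplicates (Picard), and MACS2, left at its defaults, set each library against its input. Tool versions and pooling are not given in the sources used here. Each deposited list held 1 summit position and a −log10 q-value per peak; this unit was read from the values, none of which lay under 1.30. Read depth is unknown, and strings of summits can be 1 broad peak split by the caller.

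From these, autosomal Brg1 summits were chained (gap of at most 3 kb, 5 or more summits). Partners were counted in the chain plus 500 bp on each side, in 2 flanks of equal length 10 kb beyond, and within 1 kb of each summit. The 998 genes met and the 135 covered whole were counted with the same 500 bp added. Genes came from GENCODE M21 on GRCm38, beyond whose chromosome ends 0 summits lay. Shares carry Wilson intervals and ratios exact binomial ones (95%, counting error only). Python 3.11.15, numpy 2.4.6, pandas 2.3.3, scipy 1.17.1, pysam 0.24.0 and matplotlib 3.10.9 were used, and the chaining was tested on simulated data. With 1 library per group there was no test. Alternatives changed the gap, the minimum number, the thresholds, the extension, the flanks, the start window and the chromosomes.

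Named chains were the 10 with most summits, the 5 with the highest Brg1 −log10 q-value and the 5 with most Ctcf, Rad21 or Arid1a. Their genes were those with a start within 2 kb, otherwise the gene they lay in or the nearest start, and up to 6 members were named per gene list. Chains, lists and rules were chosen with earlier results of these data known. A chain that this rule selects, and the name of a nearest gene, are not reported here.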

Additional observations from a re-analysis of the deposited data

Results flagged for a closer look

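Outside the autosomes, the same rule found 2 chains on chromosome X and 0 on chromosome Y, which were in none of the comparisons above because the rule kept to autosomes. Both X chains held 6 Brg1 summits, at chrX:126746936-126754557 and chrX:126767938-126776195, with highest −log10 q-values of 9.49 and 19.8, and no protein-coding start lay within 2 kb of either. The lists held 273 Brg1 summits on X and 27 on Y. These chains were set apart because they lie in data that the comparisons did not use.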

How the results depend on the processing

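The number of chains and of genes follows directly from how many summits a chain needs and how far it may reach. Gaps of at most 2 kb gave 430 chains and 258 genes with a start in a chain, gaps of at most 5 kb 1999 and 1332, a minimum of 4 summits 2084 and 1133, a minimum of 8 summits 154 and 123, and Brg1 peaks of −log10 q-value 2.5 or more 354 and 227. With a minimum of 4 summits the shares of chains with Arid1a, Ctcf and Rad21 and at a gene start were 86.8%, 63.6%, 76.5% and 44.6%, and with a minimum of 8 they were 100%, 83.8%, 91.6% and 60.4%. The stricter Brg1 limit gave 96.9% with Arid1a and 77.7% with Ctcf. Partner peaks limited to −log10 q-value 5 or more gave 22.3%, 46.4% and 42.4% with Arid1a, Ctcf and Rad21, which reverses the order of Arid1a against the others and follows from the few strong Arid1a peaks, while the Arid1a density ratio to flanks was 6.39 and the KO to WT ratio of H3K9me3 was 0.395. Without the extension, Ctcf was in 67.2% and Rad21 in 80.5% of chains, and a start window of 5 kb put 53.9% at a gene start. Density ratios to flanks for Arid1a, Ctcf and Rad21 were 2.94, 2.11 and 2.76 with gaps of 2 kb and 2.39, 1.62 and 1.95 with gaps of 5 kb. They were 3.94, 1.99 and 2.45 with flanks 50 kb away, the minimum of 8 gave 1.70 for Ctcf and 2.01 for Rad21, the stricter Brg1 limit 2.81 for Arid1a and 2.06 for Ctcf, and the rest of the same gene body, chosen after seeing the data, 3.07 for Arid1a and 2.11 for Ctcf. The KO to WT ratio of H3K9me3 was 0.238 with gaps of 2 kb and 0.360 with gaps of 5 kb. The cause of these shifts in ratios was not tested. Of the 109 values recomputed, 45 moved beyond their counting interval or, for counts, by over 1.5 times, 64 did not, and no ratio crossed 1. No paired analysis was possible because each group was 1 library, and for the same reason no replicate could be left out. The unknown depth limits every count of summits in KO against WT cells.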
